A study of Mus musculus with 6 samples.

Results

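The aryl hydrocarbon receptor (AHR) axis is described here through 5 genes picked by symbol from the 17023 genes of the deposited table: the receptor Ahr, its partner Arnt, its repressor Ahrr and the target genes Tiparp and Cyp1b1. Earlier results of the same comparison led to this choice, so their differences between the groups are a description, and no test is read from them. All 5 were among the 12936 genes that passed the filter on low counts. RNA was measured in primary ASMC (airway smooth muscle cells) of WT mouse lung after 5 days in transwell plates, in which a porous membrane keeps cell types apart while dissolved molecules pass. In the co-culture group (3 libraries) the plate also held mouse airway epithelial cells, and in the control group (3 libraries) it did not. Genotype, tissue and culture time were the same in both groups. The labels state an interest in smooth muscle proliferation. Control libraries are called 4, 5 and 6 after their columns, and no source says whether each library had its own culture or animal, so the p-values below measure only the spread between these libraries, which may be technical.

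AHR is a transcription factor of the bHLH-PAS family that waits in the cytoplasm bound to the chaperone HSP90 until a ligand binds it, such as dioxin, benzo(a)pyrene or the tryptophan product kynurenine. It then moves to the nucleus, pairs with ARNT and binds DNA at a short core, GCGTG, within a longer element written TNGCGTG, where N is any base. Among the genes it switches on are its own repressors, AHRR, which competes for ARNT, and TIPARP, which ADP-ribosylates the receptor. CYP1B1, another target, oxidises polycyclic hydrocarbons, estrogens and retinoids and is the CYP1 enzyme known from mesenchymal cells. In the airway the receptor is known as a sensor of smoke and particulate pollutants.

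Total counts were 17496056 to 18496623 in co-cultured libraries and 17997380 to 18410934 in controls. Control library 4 stood apart: the chi-square of its counts over degrees of freedom was 91.6 against library 5 and 99.9 against library 6, while libraries 5 and 6 gave 3.18 and co-culture pairs 3.98 to 6.51. Pairs across the groups gave 45.6 to 121. Each gene of the AHR axis is therefore also given without library 4. Several defining epithelial genes were at or near 0 in both groups. Krt5 and Cldn4 were at 0 in all co-cultured libraries, and Epcam was at 0.208 to 0.276 counts per 1000000 (CPM) in co-culture and 0.124 to 0.716 CPM in controls. The 16 epithelial markers in the table summed to 11.5 to 12.8 CPM in co-cultured ASMC and 20.1 to 27.7 CPM in controls. Krt18, a keratin not specific to the airway lining, was at 4.54 ± 0.369 CPM in co-cultured ASMC and 20.8 ± 4.39 CPM in controls (SD, n = 3 each). Of the 3 epithelial markers tested, Krt18 fell and Muc1 and Trp63 rose. Trp63 was at 3.20 ± 0.107 CPM in co-cultured ASMC and 0.825 ± 0.186 CPM in controls, and Muc1 at 2.91 ± 0.248 CPM in co-cultured ASMC and 1.77 ± 0.324 CPM in controls. Of the markers too low to test, Elf3 and Foxj1 were higher in every co-cultured library than in any control, and Krt8 and Krt19 were lower. Smooth muscle markers summed to 594 to 681 CPM in co-cultured ASMC and 856 to 884 CPM in controls, with Cald1 the most abundant in both groups. Of these muscle genes 4 of 11 tested fell and 0 rose. Acta2 fell to 60.3 ± 16.6 CPM in co-cultured ASMC, against 136 ± 14.3 CPM in controls. Tagln fell to 13.1 ± 4.09 CPM in co-cultured ASMC, against 36.5 ± 7.83 CPM in controls, and Cnn1 and Cald1 also fell. Myh11, the smooth muscle myosin, was at 0.827 to 0.962 CPM in co-cultured ASMC and 0.68 to 1.54 CPM in controls, and Des was under 0.6 CPM throughout. Myh11 and Des were thus near 0 in both groups, unlike Acta2 and Tagln. Leukocyte markers summed to 70.4 to 77.1 CPM in co-cultured ASMC and 96.3 to 151 CPM in controls, with 3 of 11 lower. Endothelial markers summed to 3.09 to 4.22 CPM in co-cultured ASMC and 4.02 to 5.89 CPM in controls, with 1 of 3 lower, and fibroblast markers, led by Col1a1, to 7260 to 7994 CPM in co-cultured ASMC and 7915 to 10127 CPM in controls, with 1 of 7 higher and 1 lower. The part of these markers in the results below was not tested, and in bulk RNA fewer cells of a type and less RNA per cell cannot be told apart.

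The stretches upstream of the genes are shown because the receptor and its partner bind the GCGTG core. RefSeq promoters of GRCm38.p6, from 250 bases before to 50 after the annotated start, were matched for 4 of the 5 genes, Ahr being the one without. They are written on the gene's own strand, 5′ to 3′, with each GCGTG in capitals and its reverse complement CACGC likewise. Ahrr is on the minus strand at chr13:74292282-74292581, Cyp1b1 on the minus strand at chr17:79715012-79715311, Tiparp on the plus strand at chr3:65528197-65528496 and Arnt on the plus strand at chr3:95434140-95434439.
Ahrr: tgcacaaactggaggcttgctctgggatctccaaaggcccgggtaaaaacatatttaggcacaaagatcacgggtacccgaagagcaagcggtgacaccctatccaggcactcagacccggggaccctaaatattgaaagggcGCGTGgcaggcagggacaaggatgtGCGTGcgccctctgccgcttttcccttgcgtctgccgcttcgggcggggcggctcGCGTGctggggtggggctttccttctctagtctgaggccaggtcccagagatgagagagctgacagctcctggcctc
Cyp1b1: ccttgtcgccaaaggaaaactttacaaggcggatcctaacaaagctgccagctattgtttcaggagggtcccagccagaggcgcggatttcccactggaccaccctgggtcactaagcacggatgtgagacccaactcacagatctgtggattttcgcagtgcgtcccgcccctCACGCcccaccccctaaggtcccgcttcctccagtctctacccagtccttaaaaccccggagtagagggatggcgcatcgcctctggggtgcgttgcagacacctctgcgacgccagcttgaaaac
Tiparp: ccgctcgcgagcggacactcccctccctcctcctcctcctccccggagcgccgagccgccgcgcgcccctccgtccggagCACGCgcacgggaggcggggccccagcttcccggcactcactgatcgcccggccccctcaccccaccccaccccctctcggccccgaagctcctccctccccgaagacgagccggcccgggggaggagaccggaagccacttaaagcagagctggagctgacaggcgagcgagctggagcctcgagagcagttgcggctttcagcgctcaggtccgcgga
Arnt: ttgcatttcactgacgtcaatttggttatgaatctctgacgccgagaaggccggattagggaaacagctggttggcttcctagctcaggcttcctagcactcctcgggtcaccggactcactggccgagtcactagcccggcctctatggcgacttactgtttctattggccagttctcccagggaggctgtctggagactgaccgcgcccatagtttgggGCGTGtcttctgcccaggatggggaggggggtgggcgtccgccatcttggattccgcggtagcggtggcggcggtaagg
The Ahrr promoter held 3 copies of the core, beginning 107, 82 and 27 bases before the start, all on the gene's strand. Its copy nearest the start lay within the only TNGCGTG of the 4 promoters. Cyp1b1 and Tiparp held 1 copy each, on the other strand, at 76 and 170 bases before the start, and Arnt 1 copy at 29 bases. A core is common in such windows: searched on both strands, GCGTG was in 32.4% of all 32851 promoters and in 49.6% of those of the genes tested here, and TNGCGTG, which contains it, in 5.07% and 7.7%. All 4 windows are rich in G and C, from 58.3% in Cyp1b1 to 73.7% in Tiparp. Letters that match are not evidence of binding, and sites farther away lie outside these windows.

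Ahr (gene ID 11622, chromosome 12, 35497979 to 35534989, minus strand) was far more abundant after co-culture. It was at 154, 139 and 148 CPM in co-cultured ASMC libraries 1 to 3, against 14.4, 12.9 and 16.5 CPM in control libraries 4 to 6. The lowest co-cultured library was 8.43 times the highest control and the highest co-cultured library 12.0 times the lowest control, so no library of a group came near the other group. Means were 147 ± 7.73 CPM in co-cultured ASMC and 14.6 ± 1.79 CPM in controls (SD, n = 3 each). The log2 fold change was 3.33 ± 0.11 (SE; edgeR), or 10.1-fold, the rank of 12 among the 12936 genes tested when ordered from the highest. Without control library 4 it was 3.32, and over 11 alternative settings it lay between 3.25 and 3.45. All reads of the gene, 2514 to 2957 in co-culture and 233 to 303 in controls, were assigned to NM_013464. It is the only RefSeq transcript listed for Ahr, so no split of reads could be seen. At the 5′ end of the Ahr gene 569 bases overlap a lincRNA on the opposite strand, Gm48236. Strandedness of the libraries is not given in the sources used here, so reads from that overlap cannot be told apart.

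Arnt (gene ID 11863, chromosome 3, 95434367 to 95497240, plus strand), the obligate partner that AHR shares with the hypoxia factors, differed between the groups by less than the SD of the control libraries. It was at 110, 111 and 117 CPM in co-cultured ASMC libraries 1 to 3 and at 105, 125 and 122 CPM in control libraries 4 to 6, and the groups overlapped. Means were 112 ± 3.89 CPM in co-cultured ASMC and 118 ± 10.7 CPM in controls (SD, n = 3 each), a log2 fold change of -0.07 ± 0.08 (SE). Over the alternatives it ran from -0.14, without control library 4, to 0.03, with library totals in place of the TMM scaling factors, where its sign turned. Library totals also moved the median over all genes, to 0.06 against -0.04 with TMM. Relative to that median, Arnt was at -0.03 under either scaling. A processed pseudogene on the same strand, Gm42672, lies within it over 352 bases.

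**Figure D1:**
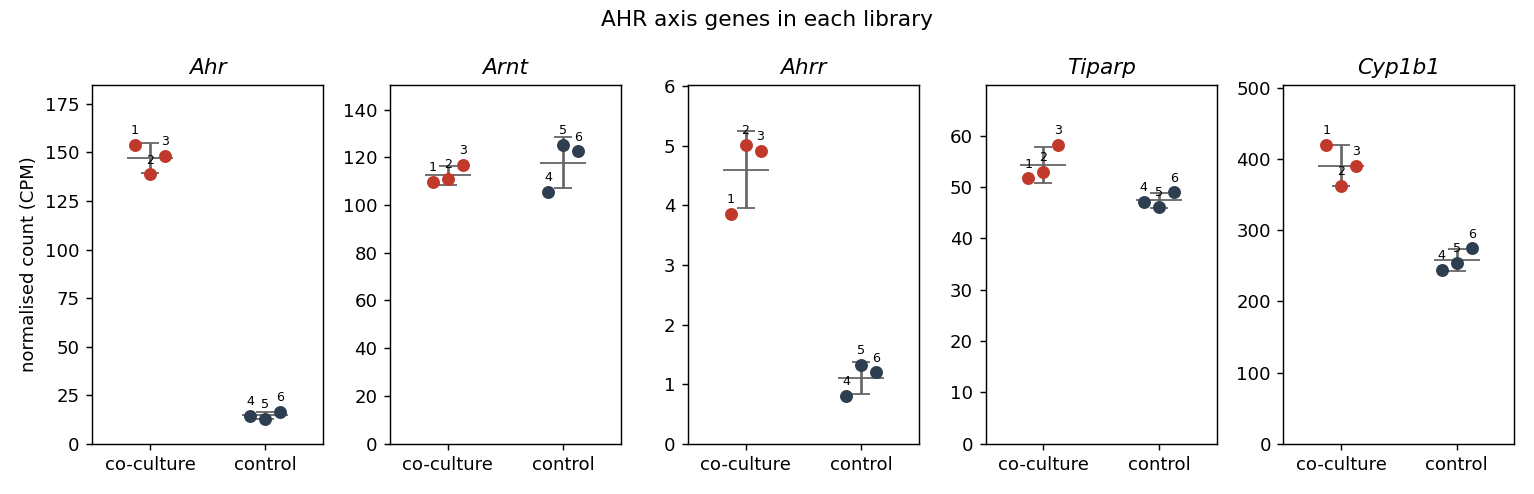
Normalised counts (CPM) of the 5 genes in each library, co-culture left and control right in each panel; numbers are library numbers, grey lines the mean and SD of 3 libraries, and each vertical axis has its own scale from 0. Co-culture libraries lie above all controls for Ahr (139 to 154 CPM against 12.9 to 16.5 CPM), Ahrr, Tiparp and Cyp1b1, while for Arnt the groups overlap.

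Among the repressors, Ahrr (gene ID 11624, chromosome 13, 74211118 to 74292331, minus strand) was low everywhere and higher in co-culture. It had 74, 91 and 92 reads in co-cultured libraries 1 to 3, against 13, 24 and 22 reads in control libraries 4 to 6. For counting error alone, the exact 95% Poisson interval was 58.1 to 92.9 reads in co-cultured library 1 and 6.92 to 22.2 reads in control library 4, the lowest of each group. That gave 3.85, 5.02 and 4.92 CPM in co-cultured ASMC and 0.803, 1.32 and 1.2 CPM in controls. The groups did not overlap, and the 9 ratios of a co-cultured library to a control ranged from 2.92 to 6.25. On average it was at 4.6 ± 0.646 CPM in co-cultured ASMC and 1.11 ± 0.270 CPM in controls (SD, n = 3 each), with a log2 fold change of 2.04 ± 0.22 (SE), or 4.1-fold. Control library 4 was the lowest, and without it the change was 1.86. The curated transcript NM_009644 took 91.4% to 92.0% of the gene's reads in co-culture and 63.1% to 91.9% in controls, where the lowest share rests on the 13 reads of library 4.

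Tiparp (gene ID 99929, chromosome 3, 65528447 to 65555518, plus strand), also called PARP7, differed little. It was at 51.7, 53.0 and 58.3 CPM in co-cultured ASMC libraries 1 to 3, against 47.2, 46.1 and 49.0 CPM in control libraries 4 to 6. Every co-cultured library lay above every control, by 1.06-fold at the least and 1.26-fold at the most. Means were 54.3 ± 3.48 CPM in co-cultured ASMC and 47.4 ± 1.47 CPM in controls (SD, n = 3 each), for a log2 fold change of 0.20 ± 0.07 (SE). It was 0.19 without control library 4 and moved between 0.14, without co-cultured library 3, and 0.30, with library totals. Relative to the median of all genes, TMM and library totals both gave 0.24. Its 5′ end shares 933 bases with a pseudogene transcribed from the other strand, 4931440P22Rik, and reads there cannot be told apart.

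Cyp1b1 (gene ID 13078, chromosome 17, 79706940 to 79715061, minus strand) was higher in co-culture. It was at 421, 362 and 391 CPM in co-cultured ASMC libraries 1 to 3, against 245, 255 and 275 CPM in control libraries 4 to 6. The groups did not overlap, and the 9 ratios between single libraries ranged from 1.32 to 1.72. Means were 391 ± 29.1 CPM in co-cultured ASMC and 258 ± 15.3 CPM in controls (SD, n = 3 each), with a log2 fold change of 0.60 ± 0.09 (SE), or 1.52-fold. Without control library 4 it was 0.56, and over all alternatives it ran from 0.55 to 0.70, the highest with library totals. Of its reads 97.3% to 97.6% in co-culture and 96.7% to 97.2% in controls belonged to NM_009994, and the rest to NM_001364889. Its share of reads by transcript thus stayed within 1 percentage point across all 6 libraries.

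In all, 3 of the 5 genes (Ahr, Ahrr and Cyp1b1) had an edgeR adjusted p under 0.05, against 20.6% of all genes tested. All 3 were higher in co-culture, against 10.3% of all genes. The libraries of the groups did not overlap for 4 of the 5, with co-culture higher each time, against 42.8% of all genes and 20.4% with co-culture higher. Over all genes, rises made up 50.1% of calls with TMM and 68.1% with library totals. Since the genes were picked with this comparison known, nothing is read from these counts.

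**Figure D2:**
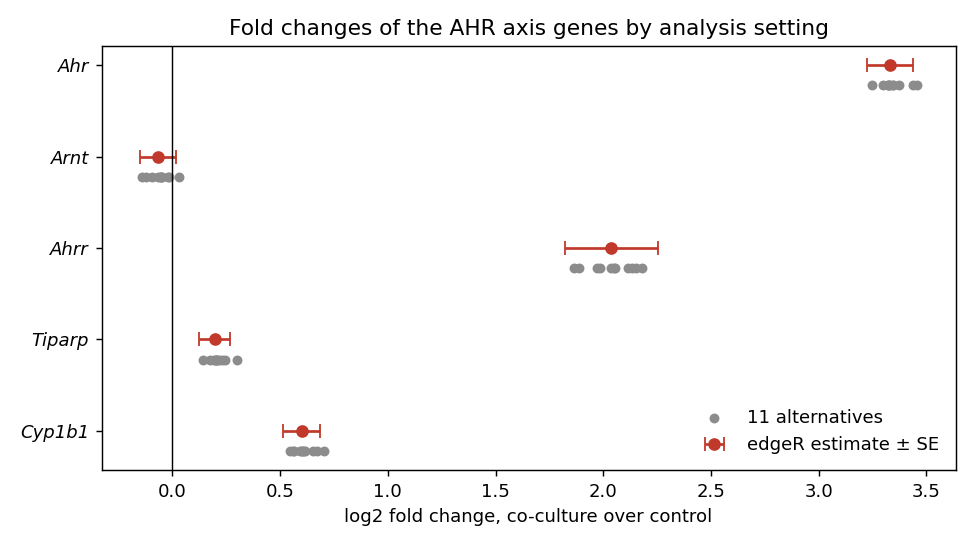
Log2 fold change of each gene, co-culture over control (red, with its SE), and its values under 11 alternative settings (grey: other scalings, other tests, no filter, each library left out). Ahr lies between 3.25 and 3.45 and Ahrr between 1.86 and 2.18 throughout, Cyp1b1 and Tiparp stay above 0, and Arnt lies on both sides of it.

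Levels of different genes can be compared only per transcript length, as FPKM (counts per kilobase of transcript and scaled library size). Cyp1b1 was highest in both groups, at 81.3 ± 5.98 FPKM in co-culture and 53.8 ± 3.27 FPKM in controls (SD, n = 3 each), and lay above Arnt in every library. Arnt followed at 31.6 ± 3.30 FPKM in co-culture and 32.3 ± 3.42 FPKM in controls. In controls Tiparp came next, at 12.3 ± 0.379 FPKM, ahead of Ahr at 2.79 ± 0.344 FPKM. In co-culture that order was turned round: Ahr, at 28.2 ± 1.48 FPKM, stood above Tiparp, at 14 ± 0.9 FPKM. Among co-cultured libraries Ahr (26.6 to 29.5 FPKM) and Arnt (27.8 to 33.6 FPKM) were neighbours whose ranges overlapped. Ahrr was lowest, at 1.14 ± 0.177 FPKM in co-culture and 0.290 ± 0.0346 FPKM in controls.

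Set against all genes tested, Ahr lay at percentiles of FPKM from 74.6 to 76.9 in co-cultured libraries and from 21.2 to 24.9 in controls. Arnt was at percentiles from 75.6 to 79.9 in co-culture and 73.7 to 80.1 in controls, and Cyp1b1 from 91.4 to 92.7 in co-culture and 84.2 to 88.1 in controls. Tiparp was at percentiles from 56.1 to 59.8 in co-culture and 52.4 to 54.6 in controls. Ahrr remained among the least abundant genes, at percentiles from 11.2 to 13.5 in co-culture and 4.02 to 5.04 in controls.

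The balance among the 5 RNAs was accordingly different. The FPKM ratio of Ahr to Arnt was 1.06, 0.796 and 0.844 in co-cultured libraries 1 to 3, against 0.0970, 0.0731 and 0.0906 in control libraries 4 to 6. By these FPKM, Ahr and Arnt RNA were near equal in co-culture, whereas in controls Arnt was in more than 10-fold excess. The Arnt paralog Arnt2 is not part of this ratio. The Arnt FPKM rest on an estimated split of reads among transcripts, including XM_006500933, of only 1211 bases. Reads assigned to it, 1.49% to 9.73% in co-culture and 4.26% to 6.77% in controls, raise FPKM more than reads on longer transcripts. The size of the excess is therefore approximate. The ratio of the repressor Ahrr to Ahr was 0.0317, 0.0476 and 0.0427 in co-culture and 0.0916, 0.130 and 0.0935 in controls, so there was less repressor RNA per receptor RNA in every co-cultured library. Cyp1b1 over Ahr was 2.83 to 2.96 in co-culture and 18.2 to 21.5 in controls, and Tiparp over Ahr 0.453 to 0.530 in co-culture and 4.02 to 4.83 in controls. These ratios are of RNA, follow from the same differences as above and say nothing of protein.

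**Figure D3:**
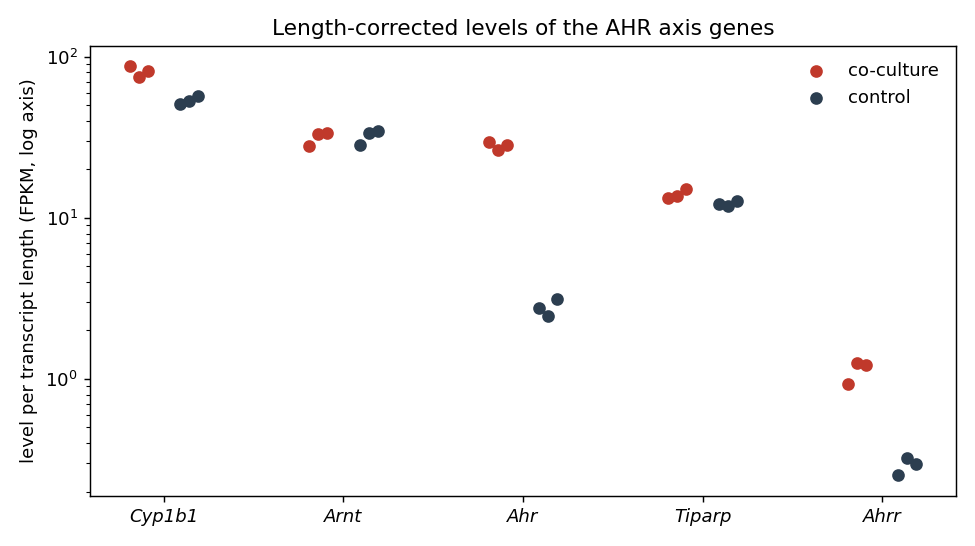
Length-corrected levels (FPKM, log axis) of the 5 genes in each library, co-culture left of control. Ahr sits beside Arnt in co-culture (26.6 to 29.5 FPKM) and far below it in controls (2.47 to 3.15 FPKM), while the other 4 genes keep their order.

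Arnt was the gene with the most transcripts, 7 in the table. NM_001037737 took the largest share of its reads in every library, 56.3%, 51.4% and 44.0% in co-cultured libraries 1 to 3, against 59.1%, 56.6% and 54.7% in control libraries 4 to 6. These ranges overlapped, since co-cultured library 1 lay within the control range. NM_009709 took 15.3% to 22.6% in co-culture and 18.6% to 20.1% in controls. Both curated transcripts together held 66.6% to 71.6% of the reads in co-culture and 73.3% to 79.3% in controls, with the rest on 5 predicted models. XM_006500933, a model whose length behind the deposited FPKM is only 1211 bases against 4042 to 4130 for the others, varied from 1.49% to 9.73% in co-culture and from 4.26% to 6.77% in controls. Such splits among overlapping models are estimates: the groups overlapped for each of these 3 transcripts alone, but not for the curated sum, which was lower in co-culture.

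By the root mean square difference of log2 CPM profiles, each centred on its own mean over 6 libraries, the 5 genes nearest to Ahr among 9489 with a mean of at least 10 CPM over all 6 libraries were Axin2, Serpina3f, Ch25h, Ptx3 and Lgi2. This is a description over libraries that share their groups, and a gene comes close mainly through a fold change of like size. Several of the genes named lie under 10 CPM in controls and reach that mean through co-culture. Axin2, a Wnt feedback gene, was closest (difference 0.20), at 34.4, 28.2 and 31.4 CPM in co-cultured ASMC libraries 1 to 3 and 2.47, 1.93 and 3.04 CPM in control libraries 4 to 6. Serpina3f (0.20) is uncertain because near-identical Serpina3 copies may share its reads. Ch25h (0.26), which makes 25-hydroxycholesterol, was at 23.6 to 26.5 CPM in co-cultured ASMC and 2.44 to 3.46 CPM in controls. Ptx3, a pattern recognition molecule, and Lgi2 were farther off (0.30 and 0.32). Nearest to Ahrr were Kif26b, a kinesin family member (0.11), at 33.7 to 38.1 CPM in co-cultured ASMC and 6.86 to 9.74 CPM in controls, Serpina3n and the prostaglandin transporter Slco2a1 (0.22). Serpina3n is uncertain for the same reason as Serpina3f. Cyp1b1 had Sepsecs, Palld, an actin-binding protein, and Mdm4, a p53 inhibitor, as its nearest genes (0.03 to 0.04). Arnt had Arhgap1, Fam168b and Dcaf7 (0.01 to 0.02), and Tiparp had Zc3h6, Wdr13 and Itih5 (0.02 to 0.03).

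Other known AHR target genes were listed with earlier results of these data known, so their counts are a description beside those over all genes. Of 30 listed, 23 passed the filter: 3 rose, 7 fell and 13 did not pass, with a median log2 fold change of -0.05 against -0.04 for all genes, of which 10.3% rose and 10.3% fell. Cyp1a1, the receptor's best known target, had 4, 2 and 2 reads in co-cultured libraries 1 to 3 and 0 in all controls, too few to test. Against a floor of 3 reads over the control group, the 8 reads over the co-culture group gave a value 2.51-fold higher in co-culture. Counting error in those 8 reads is not included, so this figure is not a lower limit on the difference. Nqo1, a quinone reductase that NRF2 also controls, was at 25 ± 0.669 CPM in co-cultured ASMC and 34.9 ± 8.59 CPM in controls (SD, n = 3 each) and did not pass (-0.48 ± 0.17, edgeR adjusted p = 0.0892). It fell by 0.26 without control library 4, which held 44.8 CPM of it against 30.9 and 29.1 CPM in libraries 5 and 6 (edgeR adjusted p = 0.0124). Nfe2l2, which encodes NRF2, was at 299 ± 11.6 CPM in co-cultured ASMC and 258 ± 12.8 CPM in controls and missed the threshold (0.21 ± 0.07, edgeR adjusted p = 0.0781), but passed it without control library 4 (0.25, edgeR adjusted p = 0.00371).

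Among the target genes that passed, the fatty acid receptor Cd36 fell to 0.393 ± 0.116 CPM in co-cultured ASMC, against 4.41 ± 1.23 CPM in controls (-3.46 ± 0.32, edgeR adjusted p = 9.09e-04). Hes1, a repressor best known as a Notch target, fell to 0.482 ± 0.0480 CPM in co-cultured ASMC, against 3.78 ± 0.231 CPM in controls (-2.96 ± 0.17, edgeR adjusted p = 1.8e-04). Il33, an alarmin cytokine, rose to 80.6 ± 3.41 CPM in co-cultured ASMC, against 41.5 ± 9.32 CPM in controls (0.96 ± 0.15, edgeR adjusted p = 0.00695). Calls of these 3 genes and of Ugt1a6a, a glucuronosyltransferase that fell by 0.46 (edgeR adjusted p = 0.00369), were made under all 11 alternatives; Ugt1a genes share their last exons, so Ugt1a6a is uncertain. Aldh3a1, an aldehyde dehydrogenase of the classical AHR battery, rose to 1.09 ± 0.372 CPM in co-cultured ASMC, against 0.213 ± 0.138 CPM in controls (2.35 ± 0.52, edgeR adjusted p = 0.0226). That call was lost without co-cultured library 1 or 2 or control library 5 (edgeR adjusted p = 0.0778, 0.0795 and 0.0556). Gsta3, a glutathione transferase with close relatives, fell by 2.31 ± 0.47 (edgeR adjusted p = 0.0166), a call lost without co-cultured library 2 or 3 (edgeR adjusted p = 0.0617 and 0.0744). In the whole list, 8 genes rose and 8 fell without control library 4. Without co-cultured libraries 1, 2 and 3 the genes that fell numbered 4, 3 and 4, and without control library 5 or 6 they numbered 5, and 2 rose without each of these 5 libraries. GCGTG stood in 43.3% of the 30 promoters matched to 23 genes of this list.

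**Figure D4:**
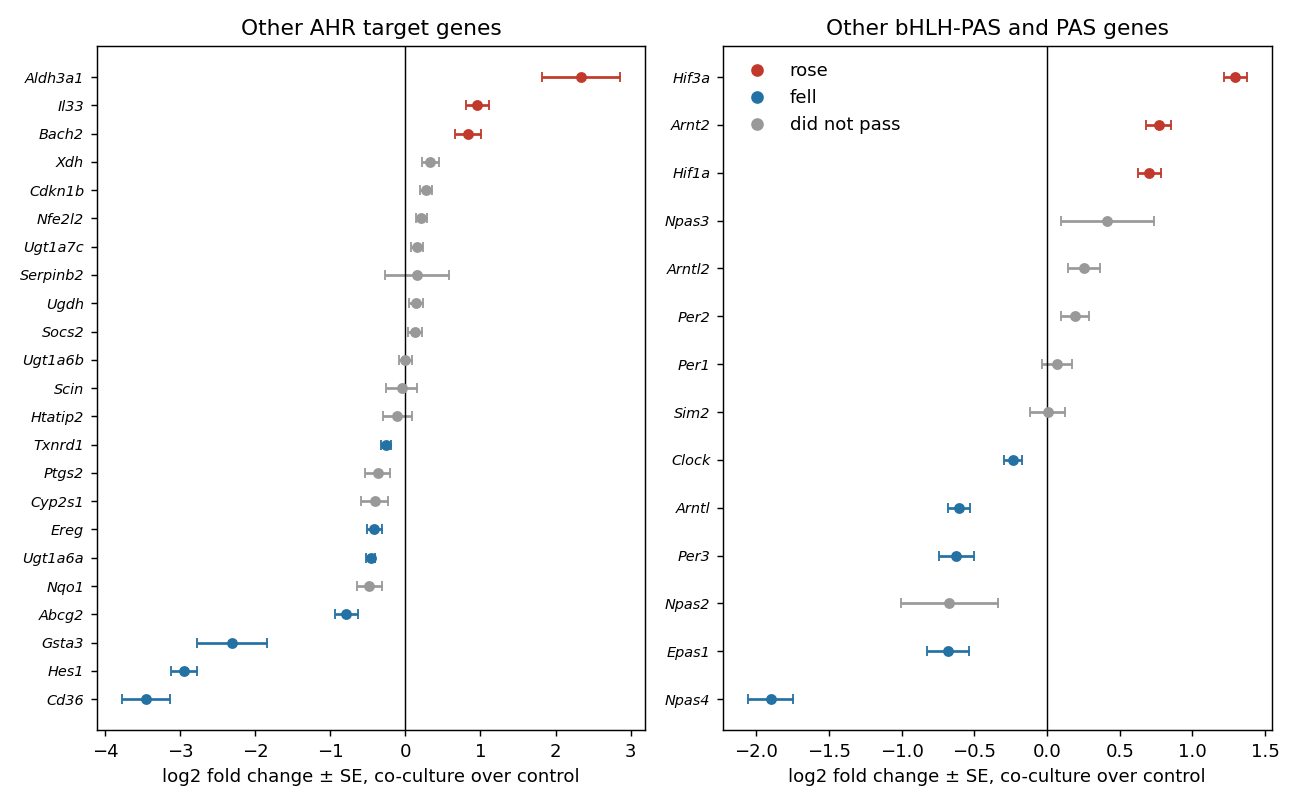
Log2 fold changes (co-culture over control) with SE of 23 other AHR target genes (left) and 14 other bHLH-PAS and PAS genes (right), from highest to lowest. Red genes rose, blue genes fell and grey genes did not pass edgeR's test at an adjusted p under 0.05; in the left panel 3 rose and 7 fell, in the right 3 rose and 5 fell.

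Relatives of AHR and ARNT changed in both directions. Of 14 other bHLH-PAS and PAS genes tested, 3 rose, 5 fell and 6 did not pass (median log2 fold change 0.04), against 10.3% rising and 10.3% falling over all genes. Arnt2, a paralog of Arnt, rose to 146 ± 6.11 CPM in co-cultured ASMC, against 86.0 ± 8.29 CPM in controls (0.77 ± 0.09, edgeR adjusted p = 0.00181). Arnt2 libraries were at 145, 141 and 153 CPM in co-cultured ASMC and at 76.9, 87.9 and 93.1 CPM in controls, without overlap. Hif1a, the oxygen-regulated subunit that uses the same partner as AHR, rose to 535 ± 27.7 CPM in co-cultured ASMC, against 329 ± 16.8 CPM in controls (0.70 ± 0.08, edgeR adjusted p = 0.00184). Hif3a, a further HIF alpha subunit, rose by 1.29 ± 0.08, with 30.4 to 32.2 CPM in co-cultured ASMC and 12.0 to 13.3 CPM in controls (edgeR adjusted p = 2.07e-04). Epas1, which encodes HIF-2 alpha, fell by 0.68 ± 0.15 (edgeR adjusted p = 0.02), and the call was lost without co-cultured library 3 or control library 5 or 6 (edgeR adjusted p = 0.0713, 0.0634 and 0.061). Npas4, an activity-regulated factor of neurons, fell by 1.90 ± 0.16 to 1.66 ± 0.285 CPM in co-cultured ASMC, against 6.22 ± 0.455 CPM in controls (edgeR adjusted p = 5.93e-04). The 3 rises and the falls of Npas4 and Arntl, a clock gene, were called under all 11 alternatives. Genes of this list that fell numbered 3, 3 and 2 without co-cultured libraries 1, 2 and 3 and 3 without control library 5 or 6.

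The cytoplasmic complex that holds AHR was set beside it. Of 12 genes for its chaperones, the kinase Src and turnover factors, 1 rose, 0 fell and 11 did not pass by edgeR (median -0.11), against calls for 20.6% of all genes. Hsp90ab1 was at 2711 ± 114 CPM in co-cultured ASMC and 2142 ± 232 CPM in controls (SD, n = 3 each) and missed the threshold (0.34 ± 0.12, edgeR adjusted p = 0.0841), but rose by 0.25 without control library 4 (edgeR adjusted p = 0.00781). Src, which is released when a ligand binds, rose by 0.43 ± 0.08 (edgeR adjusted p = 0.0149), a call lost without co-cultured library 1, 2 or 3 (edgeR adjusted p = 0.066, 0.0605 and 0.0539). Without control library 4, 2 genes of the complex rose and 2 fell, and without each co-cultured library 0 rose.

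Of 19 transcriptional cofactors, 1 rose and 2 fell (median -0.01), near the 20.6% of all genes called either way. Relb, an NF-kB subunit that can pair with AHR, rose to 30.0 ± 1.52 CPM in co-cultured ASMC, against 17.0 ± 1.89 CPM in controls (0.82 ± 0.10, edgeR adjusted p = 0.00297). That rise was called under all 11 alternatives. The coactivator Ncoa3 fell by 0.39 ± 0.09 (edgeR adjusted p = 0.0238), and its call held only with all libraries or without control library 4 among the fits that leave a library out (edgeR adjusted p = 0.0974, 0.0823 and 0.0737 without co-cultured libraries 1 to 3, then 0.0737 and 0.103 without control libraries 5 and 6). Without control library 4 there were 2 rises and 4 falls in this list, and without the other libraries 0 or 1 fell.

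Of the enzymes that open the tryptophan ring on the way to kynurenine, Ido1 and Ido2 were low in both groups. Ido1 was at 0.104, 0.331 and 0.16 CPM in co-cultured ASMC libraries 1 to 3 and at 0.247, 0.22 and 0.217 CPM in control libraries 4 to 6, with overlapping groups, and did not pass the filter. Of 9 genes of tryptophan supply and the kynurenine pathway that were tested, 1 rose, 2 fell and 6 did not pass (median -0.06), where 10.3% of all genes rose and 10.3% fell. Ido2 rose by 0.98 ± 0.25, at 1.15, 1.43 and 1.02 CPM in co-cultured ASMC and 0.494, 0.606 and 0.706 CPM in controls (edgeR adjusted p = 0.0379), and its call was lost without any 1 library (edgeR adjusted p = 0.0994, 0.119 and 0.0698 without co-cultured libraries 1 to 3, and 0.0615, 0.0969 and 0.0664 without control libraries 4 to 6). Slc7a5, a carrier of tryptophan and kynurenine, fell by 0.40 ± 0.09 (edgeR adjusted p = 0.0228), and Slc36a4, another amino acid carrier, by 0.28 ± 0.07 (edgeR adjusted p = 0.0326). The Slc7a5 call was lost without any library but control library 4 (edgeR adjusted p = 0.0947, 0.0738 and 0.0877 without co-cultured libraries 1 to 3, then 0.0719 and 0.102 without control libraries 5 and 6). Among the fits that leave a library out, Slc36a4 likewise kept its call only without control library 4 (edgeR adjusted p = 0.103, 0.126, 0.0964, 0.0631 and 0.138 without the others in that order). In this list 3 genes fell without library 4. Without each co-cultured library 1 gene of this list fell, and without control library 5 or 6 it was 0. Kynu was not analysed here, nor was Cyp1a2.

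Relatives of TIPARP in the PARP family were listed with enzymes that remove ADP-ribose. Of 19 tested, 3 rose, 0 fell and 16 did not pass, where 10.3% of all genes rose and 10.3% fell. Their median log2 fold change was 0.33, against -0.04 for all genes. Macrod1, which removes ADP-ribose, rose to 24.6 ± 1.59 CPM in co-cultured ASMC, against 10.1 ± 1.38 CPM in controls (1.29 ± 0.12, edgeR adjusted p = 9.68e-04). Parp10 rose by 0.98 ± 0.18 (edgeR adjusted p = 0.0116) and Parp3, a DNA repair enzyme, by 0.42 ± 0.07 (edgeR adjusted p = 0.00752). These 3 rises were called under all 11 alternatives. Parp10 was at 28.2, 18.8 and 18.3 CPM in co-cultured ASMC libraries 1 to 3, against 10.9 to 11.2 CPM in controls. Library 1 thus stood above the rest of its group, and the lowest estimate for Parp10 over the settings was 0.75. Co-culture library 1 was the highest of its group for Parp9, Parp12 and Parp14, which interferon also induces: Parp14 was at 49.8, 24.4 and 31.2 CPM in co-cultured ASMC libraries 1 to 3 and at 33.4, 23.2 and 27.1 CPM in control libraries 4 to 6, and did not pass (0.33 ± 0.27, edgeR adjusted p = 0.417). Without control library 4, 6 genes of this list rose.

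Genes around CYP1B1 were set beside it: its electron donor, other enzymes of estrogens and retinoids, and further P450s. Of 15 tested, 1 rose, 2 fell and 12 did not pass (median -0.06), a share of calls near the 20.6% of all genes. Por, which passes electrons to microsomal P450 enzymes, was at 199 ± 19.2 CPM in co-cultured ASMC and 234 ± 22.9 CPM in controls (-0.23 ± 0.10, edgeR adjusted p = 0.17), and passed the test without control library 4 (-0.29, edgeR adjusted p = 0.0102). Cyp7b1, an oxysterol hydroxylase, rose to 64.7 ± 2.73 CPM in co-cultured ASMC, against 29.5 ± 3.51 CPM in controls (1.14 ± 0.10, edgeR adjusted p = 7.14e-04). Hmox1, heme oxygenase, fell to 87.6 ± 3.70 CPM in co-cultured ASMC, against 147 ± 6.49 CPM in controls (-0.74 ± 0.07, edgeR adjusted p = 7.6e-04), and both calls were made under all 11 alternatives. Cyp26b1, which breaks down retinoic acid, fell by 0.39 ± 0.11 (edgeR adjusted p = 0.0456), but not without any library other than control library 4 (edgeR adjusted p = 0.134, 0.142 and 0.0689 without co-cultured libraries 1 to 3, then 0.0992 and 0.149 without control libraries 5 and 6). Without control library 4, 3 genes of this list rose and 3 fell, and 1 fell without co-cultured library 1 or 3 or control library 5 or 6.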

How the data were processed

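The authors deposited a table of 17023 genes and one of 58236 RefSeq transcripts. Both hold estimated counts, FPKM (the deposited counts per kilobase and library size) and TPM, per the file headers. The aligner was HISAT, per the labels' protocols, and the build mm10, as listed per the submitters' processing notes. The program that counted reads, its version, the annotation and the library kit are not stated there. Control columns 4 to 6 match no single labelled sample, so they were assigned to their group. Of the columns per library, 18 (control FPKM and all TPM) were not used.

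Counts were rounded, filtered with filterByExpr, scaled by TMM and fitted with edgeR 4.0.16 (R 4.3.3), using glmQLFit and glmQLFTest, with co-culture against control and no covariate. P-values are two-sided, adjusted by Benjamini-Hochberg over 12936 genes, and a gene rose or fell where the adjusted p was under 0.05. CPM are counts per 1000000 of the TMM-scaled library size. SE is the absolute log2 fold change over the square root of F. FPKM were computed from transcript counts, the lengths behind the deposited co-culture FPKM and the TMM-scaled library sizes. Without TMM they differed from deposited co-culture gene values by a median of 0.0031 (log2). A small difference follows from taking the lengths from those same values, and control FPKM were not compared. The fit was tested on simulated counts. Coordinates and strands come from RefSeq and GENCODE on GRCm38, the assembly mm10 denotes, and 99.7% of gene IDs were matched.

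The 5 genes and the pathway and marker lists were chosen with earlier results of these data known. The text names all 5 genes, up to 5 called genes per pathway list, and a fixed set of well known AHR-related genes whether called or not. Some genes of these lists are not reported here. Alternatives were DESeq2 1.42.0 and its size factors, library totals, no filter, limma 3.58.1 with quality weights, and leaving out each library.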

Additional observations from a re-analysis of the deposited data

How the results depend on the processing

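No paired analysis was possible because the control columns carry no replicate number that matches the labels. The log2 fold changes of Ahr, Ahrr and Arnt moved by less than 1 SD between replicates under all 11 alternatives. With library totals, Cyp1b1 was at 0.70 and Tiparp at 0.30, the median of all genes moved to 0.06, and 676 genes fell, so that rises made up 68.1% of calls against 50.1% with TMM. Quality weights, which gave control library 4 a weight of 0.136 against 1.15 to 1.85 for the others, called 2201 rises and 2488 falls. Leaving out a library gave 612 to 2445 rises and 598 to 2598 falls, the highest counts without control library 4. In the lists, quality weights gave 2 rises and 2 falls in the AHR complex, 4 falls among cofactors, 8 rises among other targets, 5 rises in the PARP family, and 3 rises and 4 falls among CYP1B1 partners. Library totals gave 0 falls among cofactors, 0 in tryptophan supply, and 2 rises and 1 fall among CYP1B1 partners. DESeq2 gave 2 rises in the AHR complex, 0 rises in tryptophan supply and 1 fall among CYP1B1 partners, and its size factors in edgeR gave 2 rises and 1 fall among CYP1B1 partners. Leaving out a library gave 0 to 2 rises and 0 to 2 falls in the AHR complex, 1 to 2 rises and 0 to 4 falls among cofactors, 2 to 8 rises and 3 to 8 falls among other targets, 2 to 5 falls among bHLH-PAS genes, 0 rises and 0 to 3 falls in tryptophan supply, 3 to 6 rises in the PARP family, and 1 to 3 rises and 1 to 3 falls among CYP1B1 partners. The cause of these shifts was not tested. Depth limits Ahrr and Cyp1a1, which rest on few reads, and genes near the filter.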

Other observations

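The following genes were chosen after their values were seen. Il4i1, a secreted amino acid oxidase that makes AHR ligands from tryptophan, had 0 reads in all 3 co-culture libraries, against 10, 13.4 and 18.2 estimated reads in control libraries 4 to 6. Estimates that are not whole can come from reads shared out between genes, so Il4i1 is uncertain, and so is its 0 in co-culture. Its counts were too low for the filter. Against a floor of 3 reads over the co-culture group it was 14.7-fold lower in co-culture, with counting error in the control reads not included. Clock, the partner of Arntl among the PAS genes, fell by 0.23 (edgeR adjusted p = 0.041), but passed in only 2 of 11 alternatives. Per3, a clock gene, fell by 0.62 (edgeR adjusted p = 0.0133) and passed in 8 of 11.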
